A study of Mus musculus with 3 samples.

Results

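The genes described here are the numbered Rab GTPases of the mouse, taken as every gene whose symbol on the array's annotation was Rab followed by a number, with or without a letter and a further digit. They were 59 of the 19938 genes measured, carried by 62 probe sets, and where a gene had several probe sets the set of highest mean signal stood for it. The tissue was the renal corpuscle, where the nephron filters blood, from wild-type CD-1 male mice aged 7 to 9 weeks. There was 1 group of 3 samples (replicates 1 to 3), each a pool of approximately 2 kidneys, so the data hold no comparison between conditions. Minced kidney was digested in 0.5% collagenase A for 15 min at 37 °C, and corpuscles were then sieved at 100, 70 and 40 µm. RNA was amplified in 1 round with a NuGEN Pico kit and read on an Affymetrix array. Cells were not sorted, so podocytes, endothelial and mesangial cells and any tubule piece that passed the sieves were measured together, and fewer cells of a type cannot be told apart from less RNA per cell. Nothing in the labels ties the pools to separate litters or preparations, so the spread between these samples may be only technical. The p-values cover no more than this spread and the differences between the arrays in the background level subtracted, which is defined below. Both are taken over genes of similar level and not from each gene's own values.

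Rab proteins are small GTPases that act as switches on membranes. A guanine nucleotide exchange factor (GEF) loads a Rab with GTP on its own compartment, the loaded Rab binds effectors that move, tether or fuse vesicles, and a GTPase activating protein (GAP) ends the cycle. The inactive Rab is then drawn off the membrane by a GDP dissociation inhibitor. Podocytes, which keep up the slit diaphragm of the filter, are known to take up and recycle its protein nephrin by vesicle traffic.

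Markers of the main cell types were measured first. All 10 podocyte markers with a value were detected, as were 10 of 10 endothelial and 8 of 8 mesangial markers, with medians of 4.51, 3.95 and 3.39 log2 above background. Markers of proximal tubule were detected for 9 of 10, of distal tubule and duct for 5 of 8, of smooth muscle for 4 of 5 and of immune cells for 5 of 8, with medians of 0.89, 1.16, 1.39 and 0.62. Proximal tubule markers ranged from -0.39 (Cubn) to 3.68 (Kap) log2 from background. Those of distal tubule and duct ranged from -0.49 (Scnn1b) to 2.46 (Calb1). The 6 neuron markers lay between -0.86 and -0.38. The part of any cell type in the Rab signals was not tested. Background was the 95th percentile of 1212 olfactory and vomeronasal receptor probe sets, at 6.90, 6.96 and 6.92 log2 on replicates 1, 2 and 3. A gene was called detected when its signal was above this level in limma's one-sided test with a Benjamini-Hochberg adjusted p under 0.05.

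Most Rab genes were detected in the renal corpuscle. Above background were 43 of the 59 (72.9%), where 58.9% of all genes were. The median Rab gene lay 1.24 log2 above background and the median of all genes 0.37. A linear signal over 150 on every array was reached by 39 Rab genes (66.1%) and by 51.3% of all genes. Over 500 were 17 (28.8%, against 17.2%) and over 1000 were 10 (16.9%, against 7.59%). All genes include the receptor genes that set the background. Most of these lie below it by definition, which lowers the shares and the median of all genes. The shares describe the gene family beside the whole array, and no test of their difference was run.

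**Figure D1:**
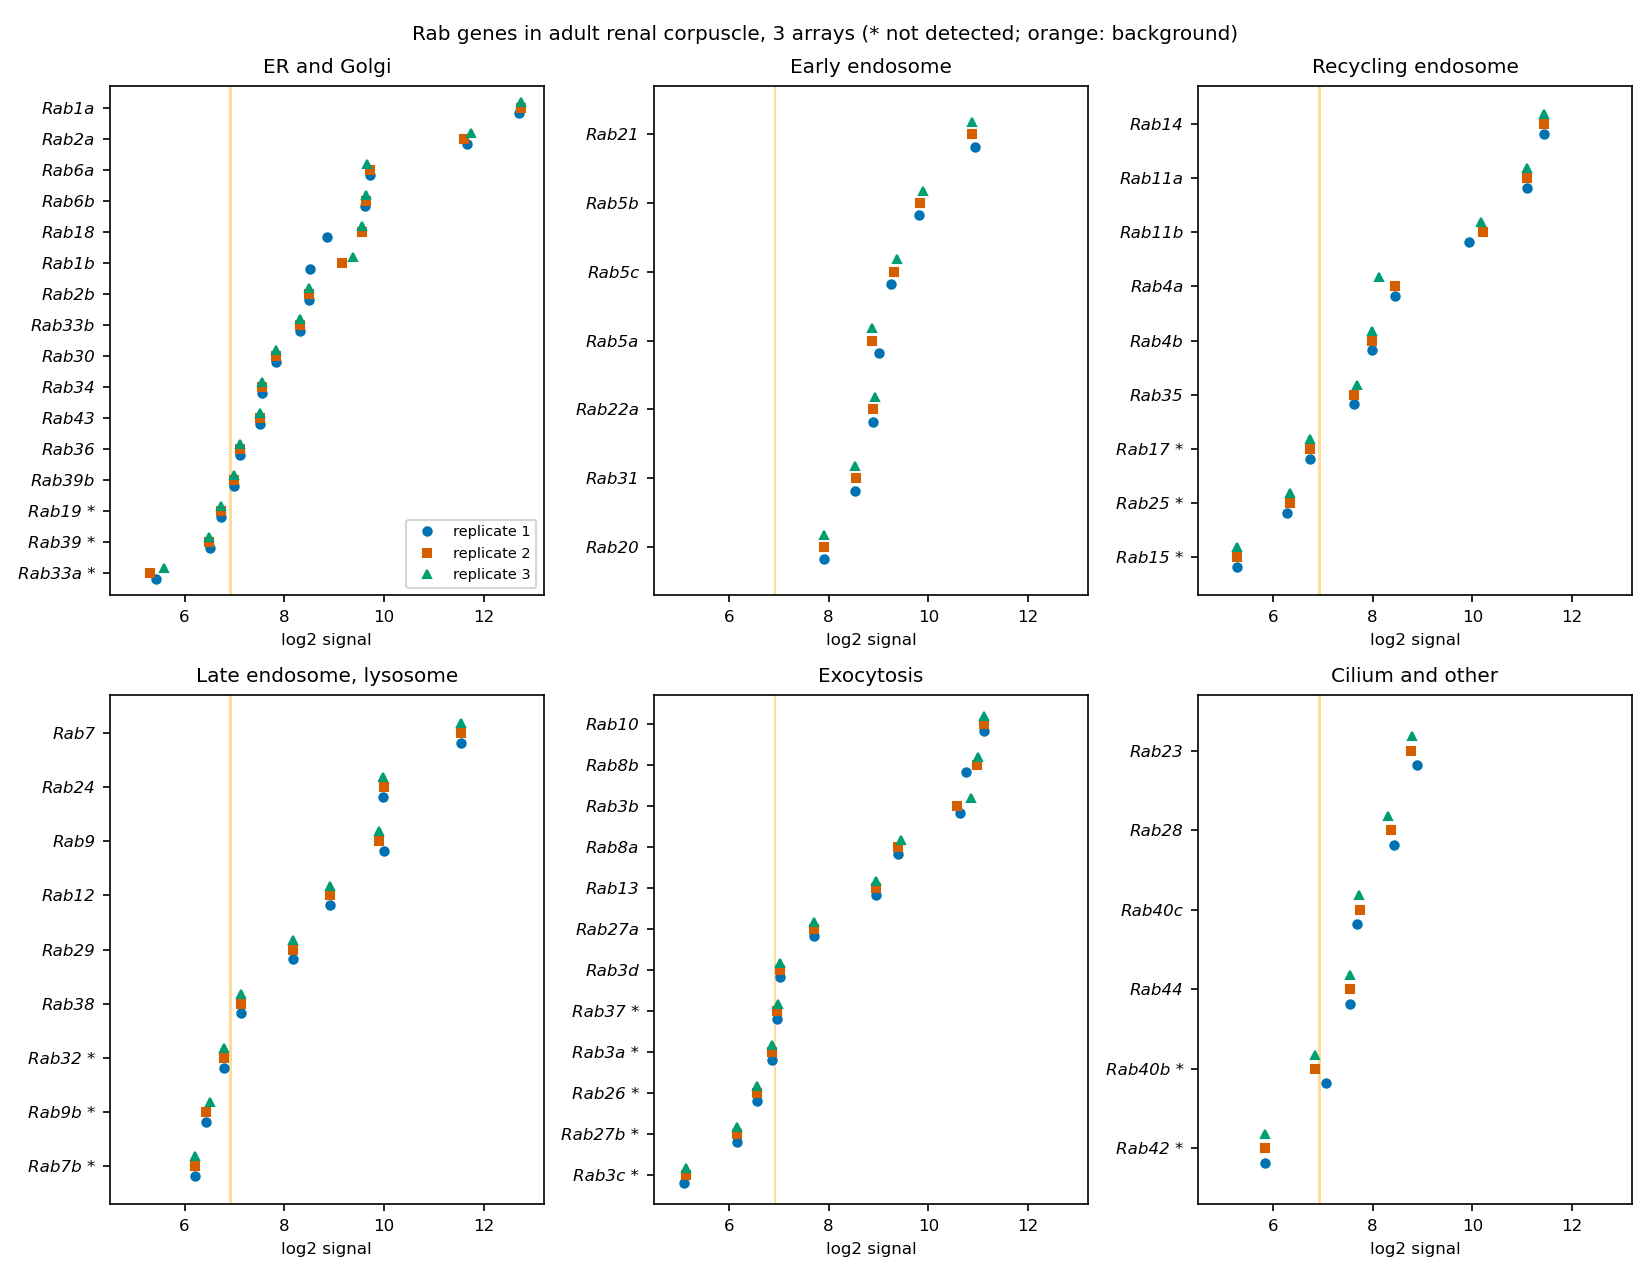
Log2 signal of the 59 Rab genes on each of 3 arrays, grouped by the compartment each is known for; points are single arrays, the orange band is the range of background over the arrays, and a star marks a gene that was not detected. Rab1a had the points farthest to the right at 12.71 to 12.75, all 7 early endosome genes lay above background, and each other group held genes on both sides of it.

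Of the Rab genes that work between the endoplasmic reticulum (ER) and the Golgi, 13 of 16 were detected (81.2%, against 58.9% of all genes). Rab1a, which is needed for traffic from the ER to the Golgi, had log2 signals of 12.71, 12.75 and 12.75 on replicates 1, 2 and 3, or 5.81 above background. Rab2a, which acts between the same compartments, had 11.66, 11.60 and 11.73. Rab6a, a Golgi Rab of transport back to the ER, had 9.72, 9.72 and 9.65. These were the members of the group farthest above background, and their arrays lay within 0.13 log2 of each other. Rab6b, a close relative of Rab6a best known from neurons, had 9.61, 9.64 and 9.64. Other members detected were Rab2b, Rab18, Rab30, Rab33b, Rab34, Rab36, Rab39b, Rab43 and Rab1b. Not detected were Rab19, with 6.74 on every array, Rab39, with 6.51, 6.50 and 6.50, and Rab33a, with 5.42, 5.30 and 5.58. Rab33a is known from brain and lymphocytes, while its relative Rab33b, a Golgi Rab that binds the autophagy protein Atg16l1, was detected with 8.32 on every array.

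All 7 Rab genes of the early endosome were detected, the only role group of which that held, where 58.9% of all genes were. They stayed so under each of the 12 alternative settings tried, under which 8313 to 18031 of all 19938 genes were detected. This was not particular to the group. Of the 43 detected Rab genes, 36 stayed detected under all settings, and the recycling endosome group never fell below 6 detected. The median of the 7 lay 2.00 log2 above background, and the lowest was Rab20, with 7.91 on every array. Rab21, which binds integrins and carries them inward, had 10.93, 10.87 and 10.87. The Rab5 proteins direct the fusion of early endosomes. Rab5b had 9.81, 9.82 and 9.89, Rab5c had 9.25, 9.31 and 9.36, and Rab5a had 9.01, 8.88 and 8.88. All of these lay above background on every array. Rab22a and Rab31, both of the Rab5 branch, lay 1.98 and 1.61 above background.

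Of the Rab genes of recycling endosomes, which return cargo to the surface, 6 of 9 were detected (66.7%, against 58.9% of all genes). Rab14, of traffic between Golgi and endosomes, had 11.43 on every array. Rab11a, the best known Rab of slow recycling, had 11.10 on every array, and its relative Rab11b had 9.93, 10.22 and 10.17. Rab4a, of fast recycling, had 8.46, 8.46 and 8.14, and Rab4b and Rab35 lay 1.06 and 0.73 above background. All of these lay above background on every array. The 3 that were not detected were Rab17, with 6.75, Rab25, with 6.28, 6.33 and 6.33, and Rab15, with 5.29. Rab17 and Rab25 are known from polarised epithelia, Rab25 as an epithelial relative of Rab11, and Rab15 is known from neurons.

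Of the Rab genes of late endosomes and lysosomes, 6 of 9 were detected (66.7%, against 58.9% of all genes). Rab7, which drives the step from late endosome to lysosome, had 11.54, 11.55 and 11.55. Rab24, tied to autophagy, had 9.97, 9.99 and 9.97, and Rab9, which returns mannose 6-phosphate receptors to the Golgi, had 9.99, 9.89 and 9.89. All were above background on every array. Rab12 and Rab29, the latter tied to the kinase Lrrk2, lay 1.99 and 1.24 above it. Rab32 and Rab38 both carry enzymes to melanosomes. Rab38 was detected with 7.14 on every array, while Rab32, with 6.79, was not. Rab9b, with 6.43, 6.43 and 6.52, and Rab7b, with 6.20, were not detected either.

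Of the Rab genes of exocytosis and delivery to the plasma membrane, 7 of 12 were detected, and this 58.3% lay close to the 58.9% of all genes. Rab10, which acts in delivery to the basolateral surface and in glucose transporter traffic, had 11.11 on every array. Rab8b had 10.76, 10.97 and 10.99, and its relative Rab8a, of delivery to the cilium and the apical surface, had 9.39, 9.39 and 9.46. Rab13, of tight junctions, had 8.96. Each of these exceeded background on all arrays. The Rab3 and Rab27 genes, which serve regulated secretion, were divided. Rab3b had 10.64, 10.58 and 10.86, a mean of 10.70 ± 0.15 (SD, n = 3) and a linear signal of 1660, and it was 1 of the 10 Rab genes over 1000. Rab3d, known from secretory granules of exocrine glands, had 7.02 on every array, only 0.099 above background. Rab3a, the main Rab of synaptic vesicles, had 6.86 and was not detected, nor was Rab3c, with 5.09, 5.13 and 5.13, the Rab gene farthest below background. Rab27a, of lytic granules and melanosomes, had 7.72 and was detected, and Rab27b had 6.17 and was not. Rab26, with 6.56, and Rab37, with 6.96, 6.96 and 6.99, both of secretory granules, were not detected.

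Of the 6 remaining Rab genes, tied to the cilium or of other roles, 4 were detected (66.7%, against 58.9% of all genes). Rab23, which restrains hedgehog signalling, had 8.89, 8.77 and 8.79, and Rab28, tied to cilia, had 8.43, 8.37 and 8.30. Rab40c, a Rab with a SOCS box, had 7.68, 7.74 and 7.72, and Rab44, a Rab of unusual length, had 7.55 on every array. Rab42, with 5.85, was not detected. Rab40b lay above background on replicate 1, with 7.07, and below it on the other two, with 6.84 on each.

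Among genes of the same number, some subfamilies were detected whole and others in part. Of the 14 numbers with several measured members, which held 31 genes, 7 had every member detected (1, 2, 4, 5, 6, 8 and 11), 7 had some detected and some not (3, 7, 9, 27, 33, 39 and 40), and none had no member detected. In the Rab3 subfamily the members b and d were detected and a and c were not. Rab7, Rab9, Rab27a, Rab33b, Rab39b and Rab40c were detected, and Rab7b, Rab9b, Rab27b, Rab33a, Rab39 and Rab40b were not. Over the whole family 72.9% of Rab genes were detected, and 58.9% of all genes. Whether members of a number share a call more often than other Rab genes was not tested. Each probe set has its own affinity, so no ratio between members was taken.

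**Figure D2:**
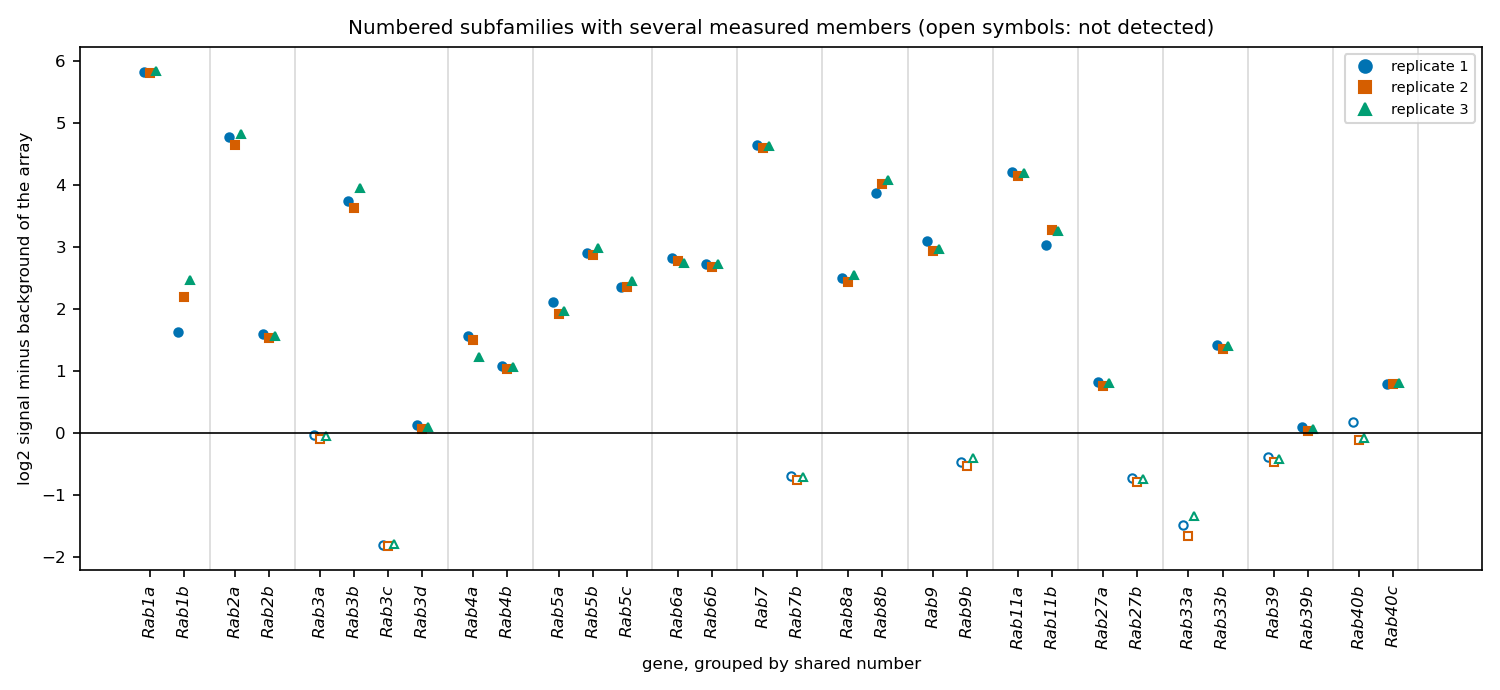
Log2 signal minus the background of the same array for the 31 Rab genes that share a number with another measured Rab gene; points are single arrays, and open symbols mark genes that were not detected. The members of subfamilies 1, 2, 4, 5, 6, 8 and 11 all lie above the line at 0, while Rab3a and Rab3c lie below it and Rab3b 3.77 above it.

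Several calls rested on a small distance from background. The detected genes nearest to it were Rab39b, with 6.99 on every array (0.067 above, limma adjusted p = 0.0166), and Rab3d. On the other side were Rab37 (0.048 above, limma adjusted p = 0.0776) and Rab40b (-0.0055, limma adjusted p = 0.952). Without replicate 1 or replicate 3 Rab39b was no longer detected, with limma adjusted p of 0.199 and 0.217, and without replicate 3 Rab3d was not either (limma adjusted p = 0.0848). Without replicate 2 both Rab37 (limma adjusted p = 0.00293) and Rab40b (limma adjusted p = 0.0328) were called. The standard error of this test follows the level of a gene and not its own spread, so these p-values may be too small. Rab3d had 7.02 on every array, so its level above background changed only with the background of the arrays kept. Background was highest on replicate 2 (6.96 log2), the array left out when both Rab37 and Rab40b were called.

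Replicate 1 gave lower signals for a few Rab genes. Only Rab1b and Rab18 differed between arrays by at least 1.5-fold (3.39% of the Rab genes, where 1.18% of all genes did). Rab1b, another Rab of ER-to-Golgi traffic, had 8.52, 9.15 and 9.38. Rab18, tied to the ER and lipid droplets, had 8.86, 9.56 and 9.56. In both, replicate 1 was the low array, and without it no Rab gene was 1.5-fold apart between the remaining arrays. Rab11b and Rab8b were also lowest on replicate 1, but Rab4a was lowest on replicate 3. The other probe set of Rab11b had 8.17, 8.19 and 8.17, equal on replicates 1 and 3. Rab40b, Rab5a and Rab9, among others, were highest on replicate 1. Of the 59 Rab genes, 23 (39.0%) lay below their own mean on replicate 1 and 11 (18.6%) above it, where 21.9% of all genes lay below and 23.9% above. On replicate 3, 12 (20.3%) lay below and 22 (37.3%) above, where the shares of all genes were 24.0% and 21.8%. No test of the Rab genes against all genes was run. The other 25 Rab genes (42.4%) had the same value on all 3 arrays, as 54.2% of all genes did. An SD of 0 is therefore not an error of 0 here, and equal values may not be 3 separate measurements, which bears on the p-values and on the calls made without a replicate. For these genes only the background subtracted differed between arrays.

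The 3 Rab genes with 2 probe sets, Rab2a, Rab5b and Rab11b, were detected by both. In each of them the probe set with the higher mean stood, in the array's numbering, among 20 neighbours that all name genes of another chromosome. For Rab2a, a gene of chromosome 4, the neighbours name chromosome 5, and its other probe set gave 10.87, 10.87 and 10.88. For Rab5b (chromosome 10, neighbours 2) the other set gave 9.82, 9.82 and 9.87, close to the one used. For Rab11b (chromosome 17, neighbours 19) the other set gave 8.17, 8.19 and 8.17, which is 1.26 above background, where the set used is 3.18 above. Such placing was found for 3 of 57 Rab probe sets whose neighbours could be placed (5.26%) and for 2.65% of 20498 probe sets of all genes. Whether these sets read other copies of the genes was not tested, and the levels of Rab2a and Rab11b are uncertain for that reason. The check was chosen after values were seen, and no Rab call changed when such sets were left out.

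**Figure D3:**
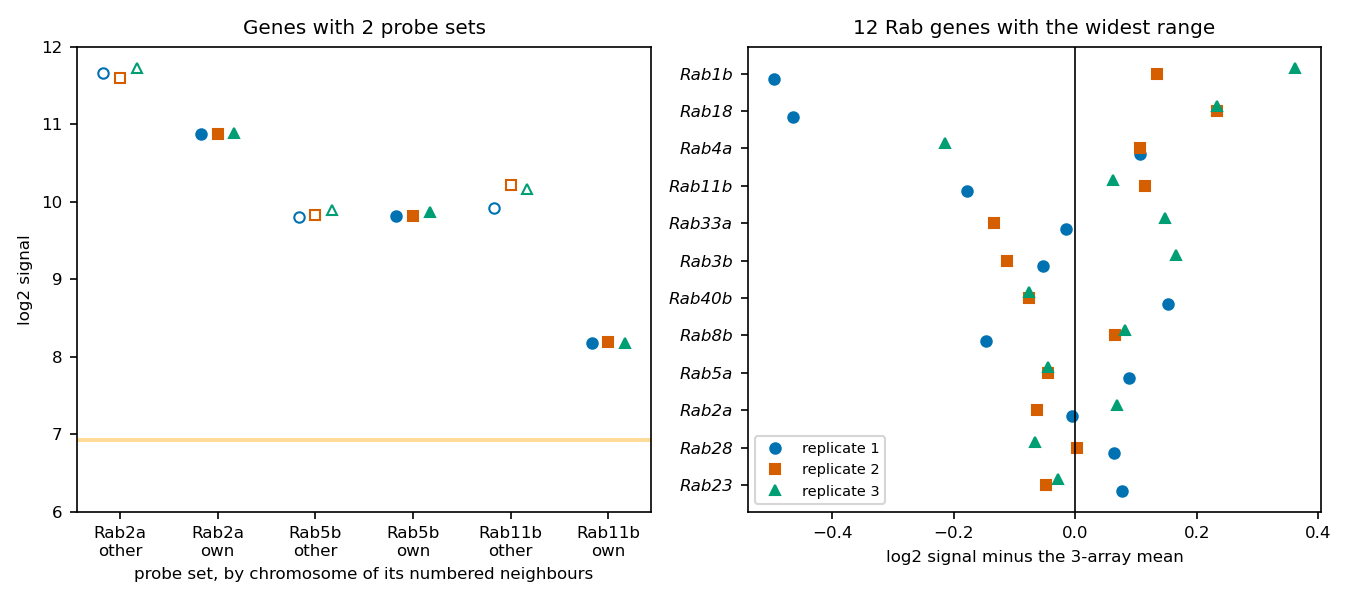
Left, log2 signal of both probe sets of Rab2a, Rab5b and Rab11b on each array, open where the numbered neighbours of the set name genes of another chromosome, with background in orange. Right, the deviation of each array from the 3-array mean, in log2, for the 12 Rab genes of widest range. The sets of Rab11b lie near 10.1 and 8.18, and replicate 1 is the low array of Rab1b and Rab18.

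Genes of the Rab cycle are given beside all genes, of which 58.9% were detected, with a median of 0.37 log2 above background. Of a list of inhibitors, escort proteins, prenylation enzymes and other proteins that bind Rabs, 7 of 7 were detected, with a median of 2.53 log2 above background. Gdi2, a GDP dissociation inhibitor, had 10.91, 10.85 and 10.85, and Rabac1, which binds prenylated Rabs, had 9.96, 9.99 and 10.02. Rabif had 9.78, 9.32 and 9.50, and Rabggtb, a subunit of the enzyme that prenylates Rabs, had 9.66, 9.45 and 9.26. These 4 had the signals farthest above background in their list. Of the GEF genes, 26 of 30 were detected (86.7%, median 0.97). They were led by Sbf2, with 10.32 on every array, Dennd5a, with 10.11, 10.06 and 10.11, Rin2, an activator of Rab5, with 9.98, 10.02 and 10.02, and Dennd5b, with 9.89, 9.53 and 9.92. Dennd2d lay lowest, at 5.39, 5.39 and 5.34, and Als2cl at 6.51 and Dennd1c at 6.86 were not detected either.

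Of the GAP genes, which end the active state of a Rab, 32 of 37 were detected (86.5%, median 0.97). Tbc1d15, a GAP of Rab7, had 10.13, 10.13 and 9.98. Rabgap1, Usp6nl and Evi5 lay 3.07, 2.46 and 2.25 above background. Tbc1d30, Tbc1d2 and Sgsm1 were not detected. Of the effectors, 36 of 46 were detected (78.3%, median 0.71). Farthest above background were Appl1, an adaptor on endosomes, with 10.08, 10.00 and 9.97, and Inpp5b, a phosphatase of inositol lipids, with 9.65, 9.64 and 9.75. Next were Eea1, a tether of early endosomes, with 9.28, 9.14 and 9.14, and Rabep1, with 9.37, 9.09 and 9.05. All 4 lay above background on every array. The 3 farthest below it were Exph5, with 5.59, 5.66 and 5.59, Sytl5, with 5.68, and Sytl2, with 5.89. Families within the list were divided. Sytl3 and Sytl4 were not detected and Sytl1 was (0.21 above background). Rims1 and Rims2 were not, and Rims3 (0.77) and Rims4 (0.95) were. Rab11fip4 and Rab11fip5, of a family that binds Rab11, were not, and Rab11fip1 (0.29), Rab11fip2 (1.49) and Rab11fip3 (0.88) were. The remaining gene not detected was Unc13d. The lists were compared with all genes by counts and medians only, and at the main background level only. Some detected genes lay close to it, among them Tbc1d8 (0.099 above), Dennd1b (0.12) and Micall2 (0.18). A higher level would lower the counts of GEF, GAP and effector genes. For all genes the receptors' 99th percentile gave 8313 detected in place of 11752.

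**Figure D4:**
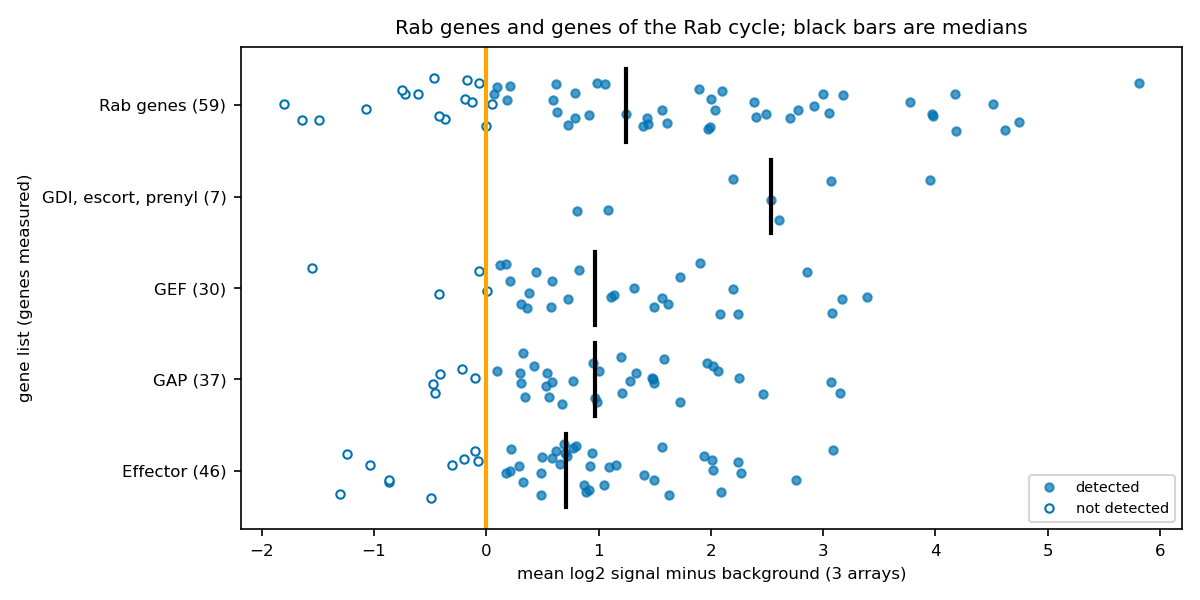
Mean log2 signal minus background over 3 arrays for the Rab genes and 4 lists of genes that act on or with Rab proteins; each point is a gene, open points were not detected, the black bar is the median and the vertical position within a list is arbitrary. All 7 genes of the list of inhibitors, escort proteins, prenylation enzymes and other Rab binders lie right of background, with a median of 2.53. The effectors have the lowest median, 0.71.

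Windows of 250 bases before the start were available for 48 of the Rab genes, from the RefSeq promoter table of GRCm38.p6, and the dinucleotide CG, which reads the same on both strands, was counted in them. Where a gene had several starts, the median over its windows was taken. The 36 detected Rab genes had a median of 19.75 CG and the 12 undetected ones 7. The same order held over all genes, with medians of 15.5 (9420 detected) and 4 (6194 undetected). All genes here include any receptor gene with a window, and most receptor genes are undetected by definition. Of the detected Rab genes 83.3% had 10 or more, and of the undetected 33.3%, where the shares of all genes were 72.6% and 27.9%. This was chosen after values were seen and is a description without a test. The windows shown are those of Rab1a, the Rab gene farthest above background (23 CG), of Rab3b, detected with 6 CG, and of Rab3c, farthest below background with 7 CG. They are written 5′ to 3′ on the strand of the gene, with CG in capitals. They lie at chr11:20201162-20201411 (plus strand), chr4:108878820-108879069 (plus strand) and chr13:110280207-110280456 (minus strand) of GRCm38.p6.
Rab1a: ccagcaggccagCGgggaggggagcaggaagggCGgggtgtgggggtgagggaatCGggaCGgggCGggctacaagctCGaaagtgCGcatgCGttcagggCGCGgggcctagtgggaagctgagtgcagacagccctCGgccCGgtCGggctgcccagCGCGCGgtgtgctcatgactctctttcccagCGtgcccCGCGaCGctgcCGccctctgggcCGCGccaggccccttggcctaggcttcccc
Rab3b: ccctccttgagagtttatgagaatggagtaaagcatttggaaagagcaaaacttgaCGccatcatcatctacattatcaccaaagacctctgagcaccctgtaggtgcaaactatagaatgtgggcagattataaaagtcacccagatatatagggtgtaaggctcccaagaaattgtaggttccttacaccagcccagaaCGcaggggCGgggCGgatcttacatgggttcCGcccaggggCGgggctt
Rab3c: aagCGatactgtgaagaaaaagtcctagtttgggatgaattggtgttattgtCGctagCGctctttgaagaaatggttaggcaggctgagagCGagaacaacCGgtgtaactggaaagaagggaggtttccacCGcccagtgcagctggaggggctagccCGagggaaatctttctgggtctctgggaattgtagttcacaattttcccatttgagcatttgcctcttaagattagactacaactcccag

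**Figure D5:**
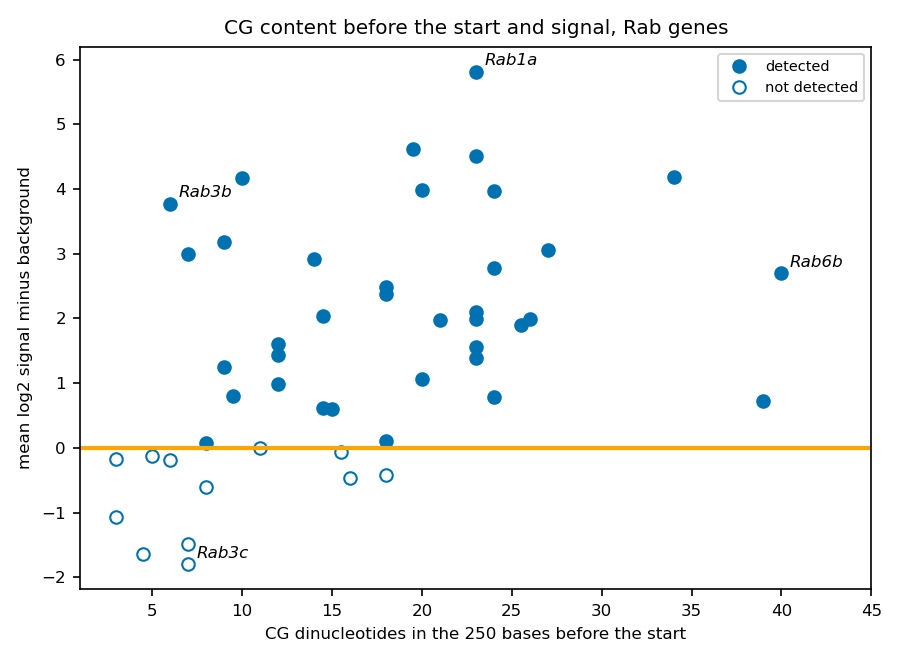
Mean log2 signal minus background (3 arrays) against the number of CG dinucleotides in the 250 bases before the start, for 48 Rab genes; filled points were detected, and the orange line is background. Rab3b and Rab3c have 6 and 7 CG and lie at 3.77 and -1.80 log2 from background, while the highest count of an undetected gene is 18. Counts are medians over the starts of a gene, and a single window can hold more, as 1 of the 4 windows of Rab15 does with 27.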

How the data were processed

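RNA of 3 samples of adult mouse renal corpuscle was measured on 1 kind of Affymetrix array. The authors deposited a table of log2 signals for 35557 probe sets, made with Affymetrix Expression Console per the submitters' processing notes, which give no version. The summary method was not given in the sources used here. No further normalization was applied, and 0 columns of other samples were present. Precision is limited by the small number of arrays.

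The platform annotation names 1 gene for 21789 probe sets, several for 1621 and none for 12147. Only the first were used, and the current RefSeq table changed 0 Rab symbols. Detection was tested with R 4.3.3 and limma 3.58.1 (lmFit with an intercept, eBayes with a trend on level), over all 19938 genes, on the log2 signal minus the array's 95th percentile of receptor probe sets. The test was tried on simulated data in which the genes meant to be undetected were held clearly below background. That trial therefore cannot show how often genes at the limit are called falsely. Each probe set has its own affinity, so the order of levels was used for naming genes and is no order of RNA amounts. Linear signals were obtained by raising 2 to the mean log2 signal.

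The Rab genes and the lists were chosen with earlier results of these data known. Within the lists, Rab7b and Rab44 were given a role after values were seen, and Rab1a, Rab6a and Rab29 were entered under the symbols the annotation uses. List members without a value, Rab41 among them, were not analysed here. Genes named are those undetected, all Rab3 and Rab27 genes, the 3 of each role farthest above background, those at least 1.5-fold apart between arrays, those nearest to background, and of each other list the 4 detected of highest mean and up to 3 undetected of lowest mean. Others were named after their values were seen.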

Additional observations from a re-analysis of the deposited data

How the results depend on the processing

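No paired analysis was possible because there was 1 group. Detected Rab genes were 43 as reported and between 36 and 56 over the 12 alternatives (41 to 45 when a replicate was left out). The same call held for 39 of 59 under all of them, 36 detected and 3 undetected, and for 55 when the 3 other background levels were set aside. When background was set at the receptors' median, 18031 of all genes were detected in place of 11752, and levels turned positive for Rab3a (1.49), Rab7b (0.83), Rab9b (1.08), Rab17 (1.38), Rab19 (1.37), Rab25 (0.94), Rab26 (1.19), Rab27b (0.80), Rab32 (1.42), Rab33a (0.059), Rab39 (1.13), Rab40b (1.55) and Rab42 (0.48). With their 99th percentile they turned negative for Rab3d (-0.54), Rab34 (-0.015), Rab36 (-0.45), Rab37 (-0.59), Rab38 (-0.42), Rab39b (-0.57), Rab43 (-0.041) and Rab44 (-0.0051). With a fixed linear signal of 150 the same was seen for Rab3d (-0.21), Rab36 (-0.12), Rab37 (-0.26), Rab38 (-0.093) and Rab39b (-0.24). These follow from the level subtracted. Rab40b, at -0.0055 with all arrays, ranged from -0.095 (without replicate 1) to 0.049 (without replicate 2), with 0.029 without replicate 3. Rab37 was called when each array had to exceed background. Rab genes at least 1.5-fold apart between arrays ranged from 0 to 2 when a replicate was left out. Leaving out probe sets beside genes of another chromosome, an alternative added after seeing the data, changed no Rab call. Rab genes over a linear signal of 500 on every array were then 16 in place of 17, and 19 without replicate 1. Those over 1000 were 10 as reported, 9 with quantile normalization and 11 without replicate 1.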

Other observations

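Many Rab signals that were equal on all 3 arrays lay close to whole multiples of 1/3 on the linear scale. Of 23 such Rab genes with a linear signal under 1000, 19 (82.6%) lay within 0.02 of one. Genes with 3 different values were judged by replicate 1 only, and of 8 such Rab genes 1 did (12.5%). Over all genes the shares were 56.8% of 10510 and 25.5% of 2762. The pattern was noticed in the Rab values and the tolerance was set after seeing them, and what produced it was not tested. Values equal on all arrays may not rest on 3 separate measurements.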
